A study of Rattus norvegicus with 3 samples.

Results

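The 7 genes described here encode the signalling parts of the T cell receptor complex: Cd3d, Cd3e, Cd3g and Cd247 for the invariant CD3 chains, Lck and Zap70 for the first kinases to act on them, and Lat for the adaptor that the kinases phosphorylate. They were found by symbol, and all 7 were present among the 34034 features of each of the 2 matrices. Rats of the inbred Lewis strain, aged 8 weeks and with no transgene or treatment named, gave the thymi for both droplet libraries. The thymocyte library was made from cells released with collagenase D and DNase I. The stromal library was made from a digest with Liberase TH and DNase I that was depleted of cells bearing CD45, the pan-leukocyte surface protein, by magnetic and flow sorting. A Stereo-seq section of the same series carries no gene counts in the tables used here, so it has no value for these genes. Each group is 1 library and the number of animals is not stated, so there was no replicate check and no test. Every interval below covers the counting error of molecules at 95% and nothing else.

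The T cell receptor itself has no signalling domain. Its antigen-binding chains sit with the CD3 gamma, delta and epsilon chains and a pair of CD247 (CD3 zeta) chains, whose cytoplasmic tails are phosphorylated by Lck. Zap70 then docks on the phosphorylated tails and phosphorylates Lat, on which the downstream complexes assemble. In the thymus the same parts serve first the pre-T cell receptor of double-negative (DN) cells, then the receptor of double-positive (DP) cells, which decides survival, and later that of mature CD4 and CD8 cells.

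The promoters of the genes are shown because the CD3 gamma, delta and epsilon genes lie side by side yet did not all move together below. Of their pairs, Cd3d and Cd3g were ordered most alike over the labels and Cd3e and Cd3g least. Lck is shown because it is known for a pair of start sites. RefSeq windows on the GRCr8 build (250 bases before to 50 after a start site) matched all 7 genes. The counts were made on another build, mRatBN7.2, so these coordinates serve the sequences alone. Cd3g (chr8:54183869-54184168, minus strand) and Cd3d (chr8:54185269-54185568, plus strand) are read away from each other, with 1601 bases between their start sites. Cd3e (chr8:54211721-54212020, minus strand) starts 26251 bases from the start of Cd3d. The Lck start sites (upstream chr5:147201218-147201517, downstream chr5:147183601-147183900, minus strand) are 17617 bases apart. Sequences read 5′ to 3′ along the gene, and capitals mark every match to 5 motifs searched on both strands.
Cd3g: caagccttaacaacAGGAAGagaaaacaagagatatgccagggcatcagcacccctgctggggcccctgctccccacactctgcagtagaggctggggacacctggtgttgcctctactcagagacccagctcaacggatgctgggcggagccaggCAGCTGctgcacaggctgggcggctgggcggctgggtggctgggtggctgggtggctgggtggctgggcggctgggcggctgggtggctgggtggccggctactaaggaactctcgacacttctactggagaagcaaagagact
Cd3d: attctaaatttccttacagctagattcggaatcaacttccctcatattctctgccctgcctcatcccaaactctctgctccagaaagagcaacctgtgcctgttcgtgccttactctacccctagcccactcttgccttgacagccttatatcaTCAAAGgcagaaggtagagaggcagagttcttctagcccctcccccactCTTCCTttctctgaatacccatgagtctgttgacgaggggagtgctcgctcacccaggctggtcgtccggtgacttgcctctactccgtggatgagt
Cd3e: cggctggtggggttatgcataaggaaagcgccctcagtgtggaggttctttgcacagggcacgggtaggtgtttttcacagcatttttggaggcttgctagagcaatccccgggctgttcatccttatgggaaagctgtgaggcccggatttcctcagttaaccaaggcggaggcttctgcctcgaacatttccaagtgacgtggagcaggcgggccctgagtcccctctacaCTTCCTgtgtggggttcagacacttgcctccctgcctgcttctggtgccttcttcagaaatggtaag
Lck upstream start: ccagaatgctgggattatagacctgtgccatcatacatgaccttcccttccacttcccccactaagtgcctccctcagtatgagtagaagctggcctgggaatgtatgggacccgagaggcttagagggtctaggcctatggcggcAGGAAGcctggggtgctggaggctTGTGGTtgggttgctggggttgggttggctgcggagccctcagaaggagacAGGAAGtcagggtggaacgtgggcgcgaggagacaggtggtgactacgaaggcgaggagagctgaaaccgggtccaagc
Lck downstream start: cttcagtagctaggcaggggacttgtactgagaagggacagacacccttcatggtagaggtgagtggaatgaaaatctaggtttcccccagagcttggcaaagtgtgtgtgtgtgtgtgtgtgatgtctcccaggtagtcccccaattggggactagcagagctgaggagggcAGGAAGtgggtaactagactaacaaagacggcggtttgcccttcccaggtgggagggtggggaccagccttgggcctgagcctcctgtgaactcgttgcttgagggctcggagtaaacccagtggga

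The motifs were AGGAAG for ETS factors, CAGCTG for E-box factors, TGTGGT for RUNX factors, CTTTGA for TCF and LEF factors, and AGATAA for GATA factors. Every window of the 7 genes held the ETS letters at least once, including the windows of Cd247, Lat and Zap70 that are not printed. The same letters stood in 34.5% of all 33365 distinct windows. The Cd3g window held the ETS letters 236 bases before the start and an E-box 94 bases before it, and E-box letters stood in 15.1% of all windows. In the Cd3d window the ETS match began 47 bases before the start and a TCF and LEF match 96 bases before it, the latter a motif held by 16.1% of windows. The Cd3e window held only the ETS letters, 17 bases before the start. Upstream of the upstream Lck start, ETS matches began at 104 and 29 bases and a RUNX match at 80 bases, whereas the downstream window held 1 ETS match at 77 bases. RUNX letters stood in 17.3% and GATA letters in 11.6% of all windows, and no window of the 7 genes held the GATA letters. These matches describe letters in a window and not bound sites.

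The thymocyte library held 8546 labelled cells with a median of 3994 UMIs (unique molecular identifiers, each a counted RNA molecule), and the stromal library 13226 labelled cells with a median of 9087.5. The files shared 38 cell barcodes. Levels are given as counts per 1000000 UMIs of a label (CPM), summed over its cells. Labels are those of the authors. A check list of 18 T-lineage genes outside the receptor complex summed to 5878 CPM in DN cells, 16883 CPM in DP cells and 9494 CPM in the stromal label Thymocyte. The label gdT was not checked against gamma delta receptor genes and is used as the authors gave it.

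Across the 20 T-lineage labels of the thymocyte library, each of the 7 genes was detected in every label, and the ratio of the highest to the lowest label ran from 2.43 for Cd3e to 4.18 for Zap70. The genes did not peak in the same label. Cd3g, Lck and Lat were highest in DP cells, Cd3e and Zap70 in DP-sig, Cd247 in Immature CD4-1 and Cd3d in gdT. All 7 were lower in the mature labels than in DP cells on the CPM scale.

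Cd3d, the CD3 delta chain, stood at 1255 CPM in DN, 1200 CPM in DP-P, 1466 CPM in DP, 1748 CPM in Pre DP-sig, 1581 CPM in DP-sig and 1347 CPM in Immature CD4-1. It was 881 CPM in Mature CD4-1, 908 CPM in Mature CD8-1 and 701 CPM in Treg cells. Its highest label, gdT at 1753 CPM, did not differ from Pre DP-sig beyond counting error, with a ratio of 1.00 (0.952 to 1.06). Its lowest was Mature cycling T at 677 CPM.

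Cd3e, the CD3 epsilon chain that pairs with both CD3 delta and CD3 gamma, followed a steeper course. It was 489 CPM in DN and 499 CPM in DP-P, and 947 CPM in DP, 1078 CPM in Pre DP-sig and 1132 CPM in DP-sig. Mature CD4-1 held 602 CPM, Mature CD8-1 668 CPM and Mature cycling T, the lowest label, 465 CPM. The step from Pre DP-sig to DP-sig was 1.05 (0.974 to 1.13) and not resolved.

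Cd3g, the CD3 gamma chain, was highest in DP cells. It was 1946 CPM in DN, 2026 CPM in DP-P and 2943 CPM in DP, then 2557 CPM in Pre DP-sig, 1918 CPM in DP-sig and 1450 CPM in Immature CD4-1. The mature labels held 1304 CPM (Mature CD4-1) and 1226 CPM (Mature CD8-1), and AgoSel2 was lowest at 875 CPM. DP exceeded Pre DP-sig by 1.15 (1.11 to 1.19), so this order was beyond counting error.

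Cd247, the zeta chain with most of the complex's phosphorylation motifs, started low. It was 314 CPM in DN and 374 CPM in DP-P, and 929 CPM in DP, 1074 CPM in Pre DP-sig, 1087 CPM in DP-sig and 1156 CPM in Immature CD4-1. Mature CD4-1 held 668 CPM, Mature CD8-1 426 CPM and Mature CD8-2 590 CPM (518 to 668). Treg cells held 410 CPM and gdT cells 324 CPM. The lead of Immature CD4-1 over DP-sig, 1.06 (0.977 to 1.16), was not resolved.

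**Figure D1:**
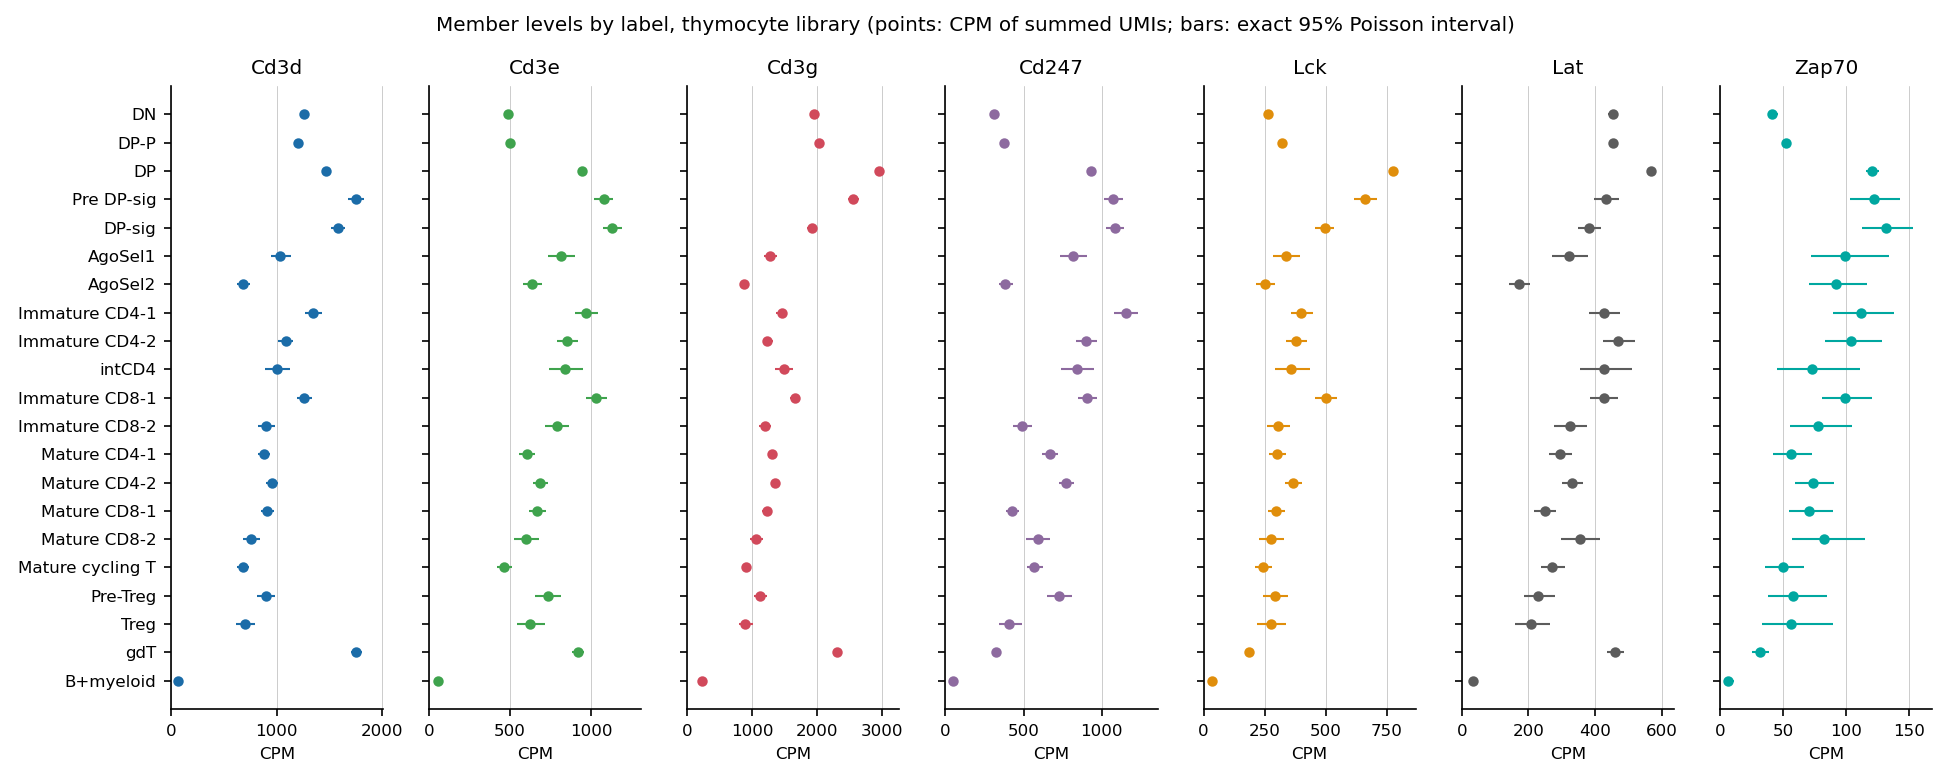
Level of each gene in 20 T-lineage labels and B+myeloid of the thymocyte library: points are CPM of summed UMIs, bars the exact 95% Poisson interval, and each panel has its own linear axis. Cd3g and Lck peak in DP (2943 and 777 CPM), while Cd247 is near its lowest in DN, DP-P and gdT and stays high into Immature CD4-1 (1156 CPM).

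Lck, the Src-family kinase bound to CD4 and CD8, was likewise highest in DP cells. It stood at 262 CPM in DN, 319 CPM in DP-P, 777 CPM in DP, 662 CPM in Pre DP-sig and 495 CPM in DP-sig. Mature CD4-1 held 302 CPM and Mature CD8-1 296 CPM, and gdT was lowest at 187 CPM. The DP level exceeded that of Pre DP-sig by 1.17 (1.09 to 1.26).

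Zap70, the Syk-family kinase recruited to the CD3 tails, was counted thinly, with UMIs in 59.5% of DN and 32.7% of DP cells. Its level was 41.6 CPM in DN, 52.7 CPM in DP-P, 121 CPM in DP, 122 CPM in Pre DP-sig and 132 CPM in DP-sig. It was 56.1 CPM in Mature CD4-1, 70.7 CPM in Mature CD8-1 and 31.6 CPM in gdT, its lowest label. The neighbours at the top of the order did not differ beyond counting error, with 1.08 (0.862 to 1.36) for DP-sig over Pre DP-sig.

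Lat, the adaptor phosphorylated by Zap70, differed little between DN and DP. Its level was 452 CPM in both DN and DP-P, 567 CPM in DP, 433 CPM in Pre DP-sig, 382 CPM in DP-sig and 469 CPM in Immature CD4-2, its second highest label. Mature CD4-1 held 295 CPM, Mature CD8-1 249 CPM, Treg 208 CPM and AgoSel2, the lowest, 172 CPM. DP exceeded Immature CD4-2 by 1.21 (1.09 to 1.34).

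Between DN and DP cells the genes fell into unequal groups. Lck, Cd247 and Zap70 were 2.97-fold (2.85 to 3.09), 2.95-fold (2.85 to 3.06) and 2.92-fold (2.63 to 3.23) higher in DP. Cd3e was 1.94-fold (1.88 to 2.00) higher and Cd3g 1.51-fold (1.49 to 1.54), while Cd3d and Lat differed by 1.17-fold (1.14 to 1.19) and 1.26-fold (1.21 to 1.30). Thus 3 of 7 were at least 2-fold higher in DP, where 27.1% of 11447 genes tested were at least 2-fold higher and 17.9% at least 2-fold lower. The median of the 7 ratios was 1.94 and that of all genes 1.21.

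The step lay between DP-P and DP. From DN to DP-P none of the 7 passed 2-fold in either direction, where 3.19% of genes were higher and 2.26% lower, and the ratios ran from 0.956 for Cd3d to 1.27 for Zap70. From DP-P to DP, Cd247 (2.48-fold), Lck (2.43-fold) and Zap70 (2.30-fold) passed 2-fold and Cd3e reached 1.90-fold, where 22.2% of genes were higher and 14.3% lower. With the authors' initial clusters in place of the projected labels none passed from DP-P to DP, and the share of all genes was not counted.

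The direction of these differences depended on the scale. DN cells held 27775 UMIs each on average, DP-P cells 20171 and DP cells 3636. Cd3g was therefore 54.0 UMIs per DN cell and 10.7 per DP cell, and Cd3d 34.9 and 5.33. Even Cd247 and Lck, with the largest CPM ratios, were at 8.73 and 7.27 UMIs per DN cell and 3.38 and 2.82 per DP cell. Per cell all 7 genes were lower in DP than in DN, from 0.153 of the DN value for Cd3d to 0.388 for Lck, and the median gene was at 0.159. Fewer molecules captured from a cell and less RNA in it cannot be told apart here.

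**Figure D2:**
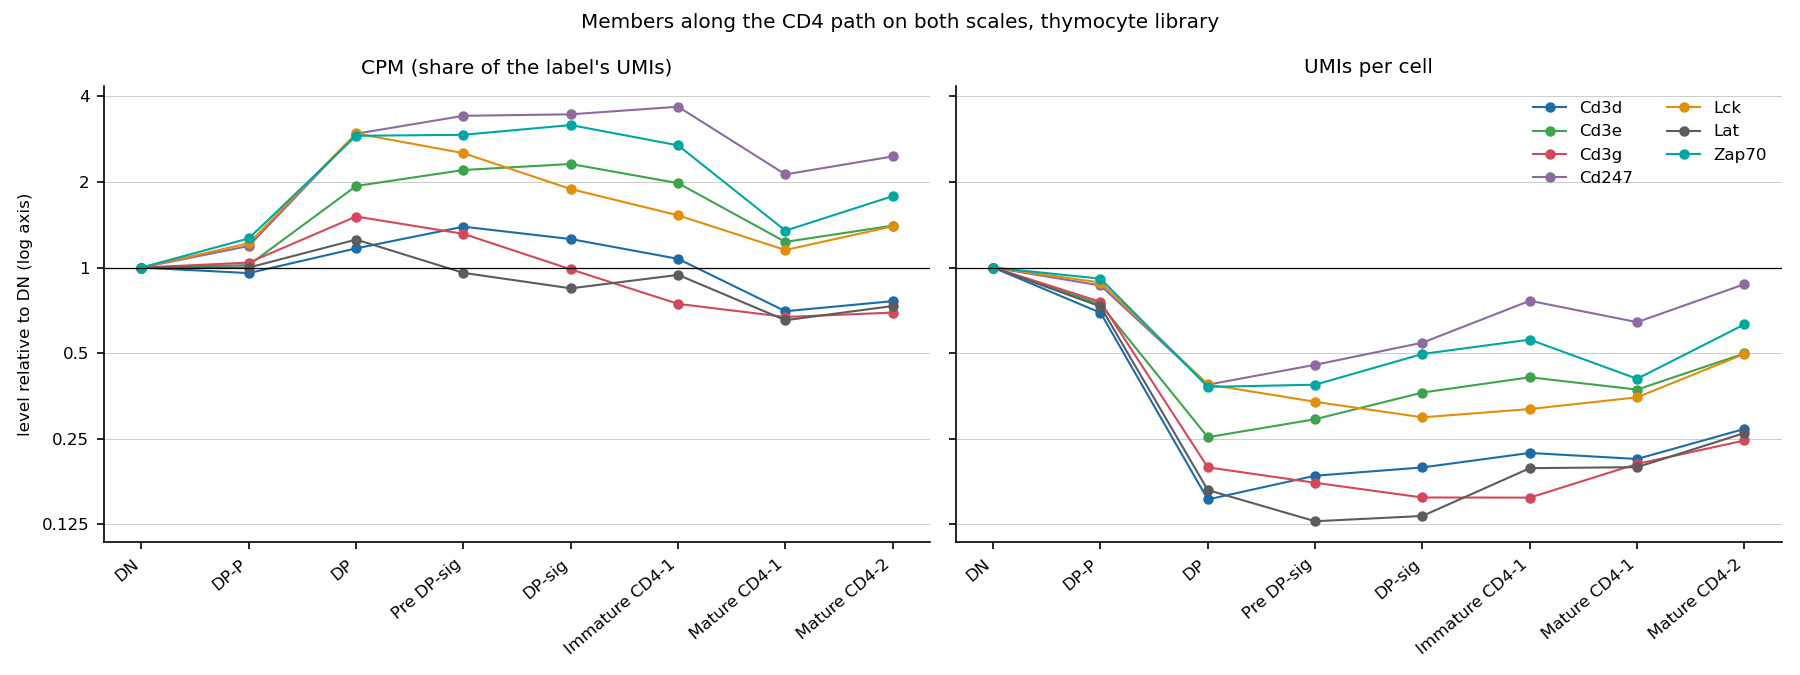
Levels of the 7 genes relative to DN along the labels from DN to Mature CD4-2, as CPM (left) and as UMIs per cell (right), on log axes; lines join labels in the usual order of development. Cd247, Lck and Zap70 are near 3-fold above DN at DP in CPM and below DN per cell, where Cd3d reaches 0.153.

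After the DP stage the CD3 chains separated. Relative to DP, Pre DP-sig held more Cd3d (1.19-fold, 1.14 to 1.25), Cd247 (1.16-fold, 1.09 to 1.22) and Cd3e (1.14-fold, 1.07 to 1.20), and less Cd3g (0.869, 0.838 to 0.901), Lck (0.853, 0.793 to 0.916) and Lat (0.764, 0.699 to 0.835). None of the 7 passed 2-fold, where 4.49% of genes were higher and 7.07% lower. In DP-sig the split had widened: Cd3g was at 0.652 (0.626 to 0.679), Lck at 0.638 (0.588 to 0.690) and Lat at 0.674 (0.614 to 0.738) of DP, with Cd3e at 1.19-fold and Cd247 at 1.17-fold. Again none passed 2-fold, where 8.26% of genes were higher and 11.7% lower. The totals per cell were 3636 UMIs in DP and 4368 in DP-sig, and both scales placed Cd3g lower and Cd3e higher in DP-sig.

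The 2 immature labels were compared with DP-sig. In Immature CD4-1 none of the 7 passed 2-fold against DP-sig (1.63% of genes higher, 3.97% lower), with Cd3g lowest at an interval of 0.704 to 0.812 and Cd247 at 0.977 to 1.16. Nor did any pass in Immature CD8-1 (1.62% of genes higher, 4.48% lower), where the interval for Cd247 was 0.766 to 0.908 and that for Lck 0.894 to 1.14.

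Mature CD4-1 cells held less of every gene than DP cells in CPM. Lck was at 0.389 (0.346 to 0.436), Cd3g at 0.443 (0.419 to 0.468) and Zap70 at 0.462 (0.349 to 0.601) of the DP level. Lat (0.521), Cd3d (0.601), Cd3e (0.636) and Cd247 (0.720) were closer to it. So 3 of 7 were at least 2-fold lower, where 24.4% of genes were lower and 8.59% higher, and the median gene stood at 0.755. In Mature CD8-1 4 of 7 were at least 2-fold lower: Lck (0.382), Cd3g (0.417), Lat (0.439) and Cd247 (0.459). There 25.3% of genes were lower and 8.75% higher, with a median of 0.744.

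Ribosomal protein genes took 16.2% of the UMIs of DP cells, 32.1% of Mature CD4-1 and 34% of Mature CD8-1. With totals free of mitochondrial, ribosomal protein and haemoglobin genes, 1 of 7 was at least 2-fold lower in each mature label. The share of all genes was not counted with those totals. Mature CD4-1 cells also held more UMIs each (8397) and Mature CD8-1 cells more still (10418). Per cell, Cd3e was 1.47-fold and Cd247 1.66-fold the DP value in Mature CD4-1, and Cd3e 2.02-fold and Cd3d 1.78-fold in Mature CD8-1. Cd3g, at 11.0 UMIs per Mature CD4-1 cell against 10.7 per DP cell, hardly differed.

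Between the mature lineages Cd247 was lower in Mature CD8-1 than in Mature CD4-1, at 0.638 (0.562 to 0.722). Lat was at 0.843 (0.708 to 1.00), whereas the intervals of Cd3d, Cd3e, Cd3g, Lck and Zap70 included 1. None of the 7 passed 2-fold, where 1.16% of genes were higher and 1.01% lower. In Mature CD8-2 the intervals of Cd247 (1.18 to 1.63) and Lat (1.14 to 1.75) lay above Mature CD8-1 and those of Cd3d (0.732 to 0.952; ratio 1.09 when thinned to 1000 UMIs) and Cd3g (0.772 to 0.965) below it, with none past 2-fold (7.01% of genes higher, 3.23% lower). Mature CD4-2 was between 1.04 and 1.32 times Mature CD4-1 for all 7, with none past 2-fold (3.28% of genes higher, 0.181% lower). Treg cells held less Cd247 (0.531, 0.439 to 0.638), Lat (0.629, 0.478 to 0.818) and Cd3g (0.661, 0.581 to 0.750) than Mature CD4-2. None of these passed 2-fold, where 3.19% of genes were higher and 6.65% lower.

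The label gdT, compared with DN, held more of the CD3 gamma, delta and epsilon chains. Cd3e was 1.88-fold (1.80 to 1.98), Cd3d 1.40-fold (1.35 to 1.44) and Cd3g 1.19-fold (1.15 to 1.22) higher. Cd247 (1.03, 0.955 to 1.11) and Lat (1.02, 0.956 to 1.08) were not resolved from DN. Lck (0.714, 0.648 to 0.785) and Zap70 (0.759, 0.595 to 0.958) were lower. None of the 7 passed 2-fold, where 10.4% of genes were higher and 4.67% lower. Cells of gdT held 21266 UMIs each, against 27775 in DN, and per cell Cd3g was at 0.909 of DN. Markers of other cells were higher in gdT than in DN. The 7 granule protease genes summed to 659 against 2.49 CPM, with Elane, Prtn3 and Ctsg at 0 in gdT. The 12 natural killer and innate markers summed to 296 against 42.3 CPM (5 at 0 in gdT), and the 12 myeloid markers to 152 against 8.68 CPM (3 at 0). Their part in the differences was not tested.

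Detection in single cells is given beside depth. All 7 genes were counted together in 57.9% of DN cells, 41.4% of gdT cells, 28.1% of Mature CD4-1 cells and 22.8% of DP cells. When each cell was thinned to 1000 UMIs, Lck was detected in 54.7% of DP and 23.6% of DN cells, against 91.4% and 98.5% unthinned, at median depths of 3205.5 and 23190 UMIs. Cd247 was detected in 58.3% of DP and 26.9% of DN cells after thinning, and Cd3d in 75.2% and 70.5%.

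The wider signalling list, 44 genes of the receptor pathway found in the files out of 45 listed, is given beside the shares over all genes. Against DN, 27 of 44 were at least 2-fold higher in DP and 2 lower, where 27.1% of all genes were higher and 17.9% lower, and the median ratio was 2.40 where all genes had 1.21. In Mature CD4-1 against DP, 11 of 43 tested were higher and 11 lower, where 8.59% of all genes were higher and 24.4% lower. The lowest were Ptcra (0.0142), the pre-T cell receptor alpha chain, Cd8b (0.0337) and Cd8a (0.0638), the CD8 chains, Sla2 (0.152), an adaptor that dampens receptor signalling, and Cd4 (0.163). The highest were the phosphatase gene Ubash3b (29.5), the costimulatory receptor gene Cd28 (10.2), the adhesion receptor gene Cd2 (6.61), Ubash3a (5.19) and Cblb (4.29), a ubiquitin ligase gene. Mature CD8-1 against DP gave 10 of 43 higher and 12 lower, where 8.75% of all genes were higher and 25.3% lower. Its lowest were Ptcra (0.00508, from 1 UMI against 3924), Cd4 (0.05), Cd8b (0.169), Sla2 (0.192) and Cbl (0.243), and its highest were Ubash3b (9.25), Cd28 (7.9), Ubash3a (6.21), Cd2 (5.38) and the phosphatase gene Ptpn22 (3.29).

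The genes were compared in pairs by their order over the 16 T-lineage labels of at least 50 cells. Cd3d and Cd3g were ordered alike (Spearman rho 0.862), as were Cd3g and Lat (0.782) and Cd3d and Lat (0.765). Cd247 followed Zap70 (0.900), Lck (0.871) and Cd3e (0.809), and Lck followed Zap70 (0.829). Between these, Cd3e and Lck had 0.697, Cd3d and Cd3e 0.676 and Cd3d and Lck 0.485, while Cd3g had 0.188 with Cd247 and 0.129 with Zap70. Among 8101 genes, those most like Cd247 were Rnf111 (0.974), Arl15 (0.971) and Tmc8 (0.965), and those most like Lck were Rictor (0.965), Ash1l (0.965) and Plcl1 (0.956). Cd3g was matched most by Dnm2 (0.959), Cyb5rl (0.932) and Sptssa (0.921), and Cd3d by Cbx6 (0.944), Ptprg (0.929) and Nsmaf (0.918). For Cd3e they were Paip2 (0.941), Dnajb9 (0.935) and Mbd6 (0.921). For Lat they were Qki (0.935), Repin1 (0.906) and Sla2 (0.894), and for Zap70 Mkln1 (0.938), Mef2a (0.935) and Pigk (0.932). All labels come from 1 library and share its depth differences, so these values describe it only.

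In the stromal library the expected holders of the genes were the 411 cells labelled Thymocyte, with Cd3g at 1468 CPM, Cd3d 769, Cd247 609, Cd3e 578, Lck 509, Lat 389 and Zap70 72.3 CPM. Fibroblasts, 8216 cells under 5 labels, served as the type that should lack them. Their levels were 1.94 CPM for Cd3g, 1.01 for Cd3d, 1.00 for Lck, 0.975 for Lat, 0.709 for Cd247, 0.595 for Cd3e and 0.139 CPM for Zap70. A fibroblast held at most 5 UMIs of any of the 7 genes, and Cd3g was detected in 1.68% of fibroblasts, at a median of 9006.5 UMIs. Departures from this background are given as CPM ratios to fibroblasts. A gene counted as above it at 3-fold or more with at least 20 UMIs. Doublets were not called here, and how the authors treated them is not stated.

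The label Myeloid (505 cells, median 9510 UMIs) held Cd3g and Cd3e and few UMIs of the other genes. Cd3g stood at 78.0 CPM (71.1 to 85.4; 471 UMIs), 40.3-fold (33.5 to 48.7) above fibroblasts, and Cd3e at 23.4 CPM (141 UMIs), 39.3-fold (28.0 to 55.8). Cd3d, the neighbour of Cd3g on the chromosome, had 10 UMIs (1.64-fold, 0.756 to 3.17). Cd247 had 11 UMIs (2.57-fold, 1.21 to 4.96), Lat 9 (1.53-fold) and Lck 5 (0.828-fold), and Zap70 had none, which allows up to 3 UMIs. Thus both members with at least 20 UMIs were above the background, where 15.1% of the 11292 genes with as many UMIs were. As a mean over cells Cd3g was 22.6-fold and Cd3e 22.2-fold above fibroblasts, and thinned to 1000 UMIs Cd3g was 15.1-fold. Cd3g was detected in 123 cells (24.4%; 3.98% when thinned to 1000 UMIs, against 0.317% of fibroblasts) and Cd3e in 58 cells (11.5%; 1.79% thinned, against 0.0731%). The largest counts in a cell were 29 for Cd3g and 15 for Cd3e.

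Other genes of the Myeloid cells that held Cd3g are measured facts beside it. These 123 cells had a median of 17414 UMIs, against 7533.5 in the other 382. Genes of granule proteases, enzymes that granulocyte progenitors store, were higher in them: Mcpt10 21.4-fold, Mcpt8 17.9-fold (870 against 48.6 CPM), Mcpt9 12.6-fold, Elane 4.64-fold, Prtn3 4.47-fold and Ctsg 4.40-fold. The other myeloid genes went both ways. Lyz2, a lysozyme gene, had a ratio of 1.01 (0.990 to 1.04) and Aif1 1.08 (0.603 to 1.90). Csf1r (1.93, 1.29 to 2.92) and Cd68 (1.42, 1.12 to 1.80) were higher, and Flt3 had 13 UMIs against 0. Lower were Tyrobp at 0.712 (0.671 to 0.755), Fcer1g at 0.659 (0.609 to 0.713), Itgam at 0.206 (0.156 to 0.270) and the dendritic cell gene Xcr1 at 0.0715 (0.00173 to 0.444). T-lineage genes were counted too, and several were higher in the 123 cells. Cd3d had 9 UMIs there and 1 in the others (13.5-fold, 1.87 to 592). Dntt had 18 and 2 (13.5-fold, 3.23 to 120) and Lef1 15 and 5 (4.5-fold, 1.56 to 15.8), but both are also on the B progenitor list. Arpp21 was 3.63-fold (2.09 to 6.57) and Trat1, a transmembrane adaptor gene, 3-fold (1.69 to 5.51) higher, while Cd8a, with 14 and 11 UMIs, was not resolved (1.91, 0.806 to 4.65). In 87 of the 123 cells, holding 305 of the Cd3g UMIs, no other gene of the 7 was counted. In the 70 cells with Cd3g and no UMI of 10 stricter T-lineage genes, Cd3g had 202 UMIs, Cd3e 31, Cd3d and Cd247 1 each, and Lck, Lat, Zap70 and Cd8a 0, beside 751 UMIs of Mcpt8. In 5 cells with Cd3g and at least 2 other genes of the 7 there were 40 UMIs of Cd3g, 9 of Cd3d, 6 of Lat and 8 of Cd8a. The 58 cells with Cd3e overlapped in part: 27 also held Cd3g and 31, with 60 Cd3e UMIs and 10 of Mcpt8, did not.

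The label's own markers bear on what it holds. Of 12 myeloid markers C1qa, C1qb and Siglech were at 0, and of 12 natural killer and innate markers 7 were at 0. The myeloid markers summed to 6307 CPM, against 14.2 CPM in fibroblasts. The natural killer and innate markers summed to 1417 CPM (8555 UMIs), against 1.96 CPM, and Fcer1g is on both lists. The granule proteases summed to 12075 CPM. The 18 T-lineage genes summed to 59.0 CPM, against 171 CPM in fibroblasts, and the 10 stricter ones to 32.0 CPM, against 4.70 CPM. In fibroblasts the stricter genes gave 371 of the 13513 UMIs of the 18. The 171 CPM thus came mostly from the rest of the longer list, which includes Thy1, and is no measure of T cell RNA. Other receptor pathway genes were common in the label, as in many leukocytes. Of 26 with at least 20 UMIs, 13 were at least 3-fold above fibroblasts: Syk 239-fold, Ptprc 224-fold, Vav1 191-fold, Ptpn22 143-fold, Lcp2 141-fold, Trat1 107-fold, Sla 93.6-fold, Ptpn6 58-fold, Fyb1 41.9-fold, Grap2 27.6-fold, Ubash3a 14.3-fold, Dok2 8.81-fold and Cd8a 4.48-fold. The part of captured T cell RNA in the Cd3g and Cd3e counts was not tested beyond these values.

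**Figure D3:**
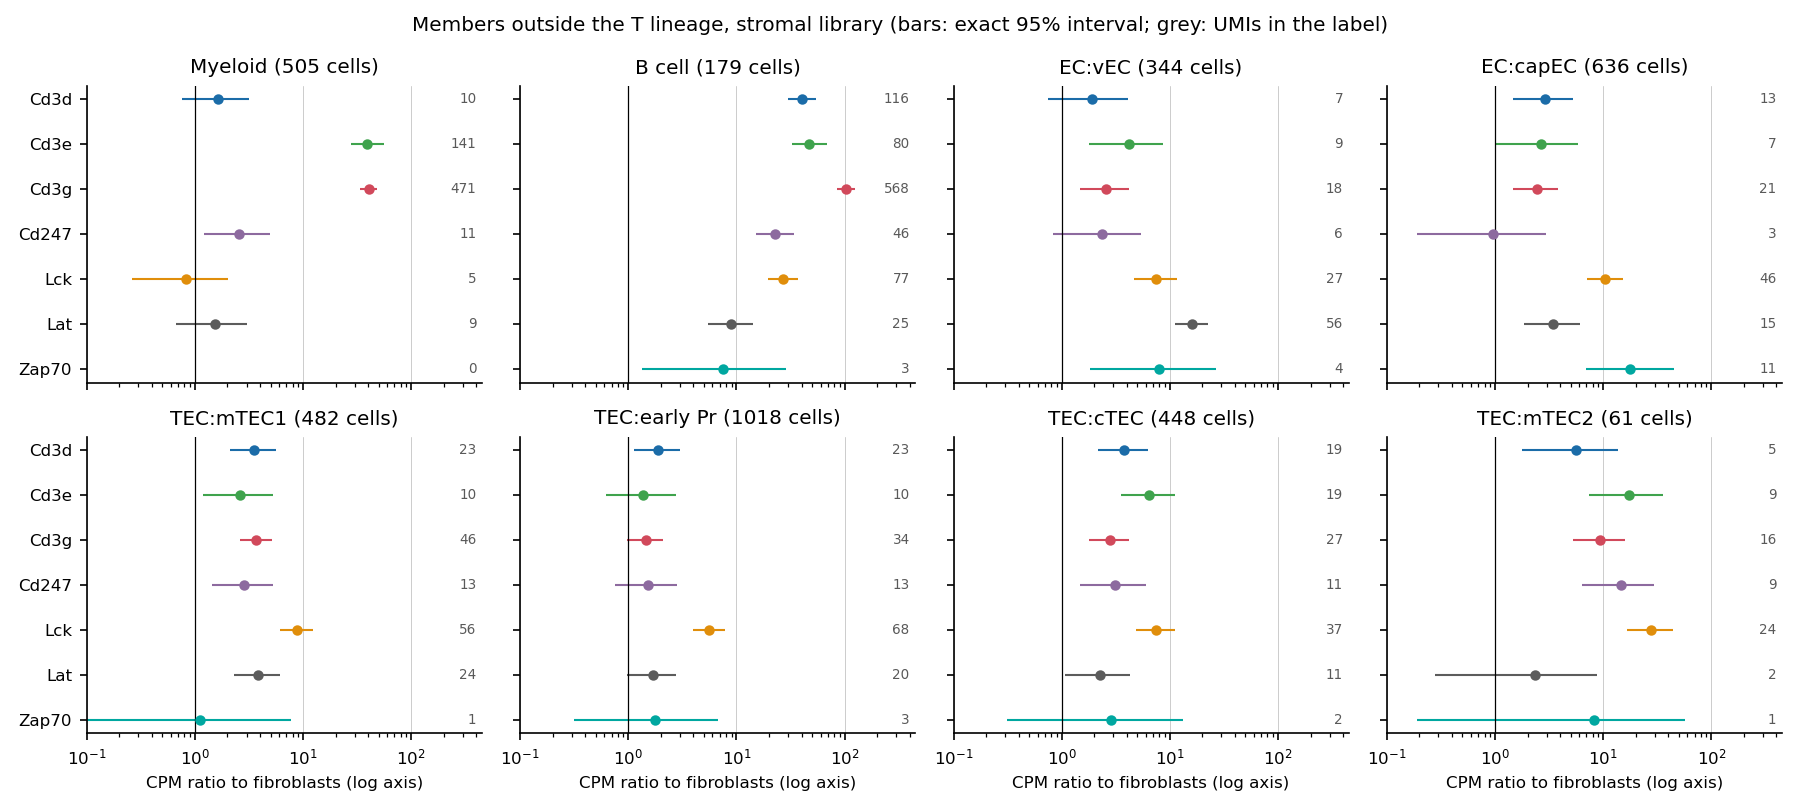
CPM ratio of each gene to pooled fibroblasts (log axis) in 8 non-T labels of the stromal library, with exact 95% intervals and the UMIs behind each point in grey. In Myeloid Cd3g (40.3) and Cd3e (39.3) are the genes with at least 20 UMIs, in B cell 6 genes are raised, in EC:vEC Lat leads (15.9) and in EC:capEC Lck (10.3) and the thinly counted Zap70.

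The label B cell (179 cells, median 14761 UMIs) held more of the complex. Cd3g was 199 CPM (183 to 216; 568 UMIs), 103-fold (85.8 to 124) above fibroblasts, and was counted in 98 cells (54.7%; 22.3% thinned). Cd3e was 47.1-fold, Cd3d 40.1-fold (29.9 to 54.0), Lck 27.0-fold, Cd247 22.7-fold and Lat 8.98-fold above fibroblasts, and Zap70 had 3 UMIs. Thus all 6 members with at least 20 UMIs were above the background, where 14.2% of 10745 such genes were. As a mean over cells Cd3d was 63.1-fold above fibroblasts.

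These counts came from unlike cells. In 67 cells with Cd3g and no Cd3d, Cd3g had 293 UMIs, Cd79a (the B cell receptor's signalling chain) 1098 and Igll1, a surrogate light chain gene of B progenitors, 574, beside 25 UMIs of Lck, 1 of Cd8a and 0 of Lat. In 32 cells with Cd3d, Cd3g had 275 UMIs, Cd3d 116, Cd8a 83, Themis 39, Cd4 28 and Lat 22, beside 516 UMIs of Cd79a. The T-lineage genes Cd8a, Themis and Cd4 were thus counted mostly in cells with Cd3d. A further view gave 38 cells with Cd3g as the only gene of the 7, with 134 Cd3g and 587 Cd79a UMIs and none of Cd8a, Cd4 or Themis.

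Cells of this label with Cd3g differed from those without it in progenitor genes. Igll1 was 684 against 2.33 CPM (293-fold, 100 to 1424), Dntt, the polymerase that adds bases at receptor junctions, 46.5 against 0.777 CPM, and Il7r 140 against 9.33 CPM. Cd79a was 1021 against 119 CPM and Pax5, the B-lineage transcription factor, 7.31-fold higher. Their median depths were 14087 UMIs in 98 cells and 16663 in 81. In the whole label the fibroblast markers summed to 4303 CPM and the stricter T-lineage genes to 195 CPM, with Cd28 alone at 0. Leaving out cells with any UMI of the stricter T-lineage genes removed 48% of the label and 3.98% of fibroblasts. Cd3g was then 39.9-fold and Cd3d 8.47-fold above the fibroblasts that remained. With the longer list of 18 genes at 3 or more UMIs, which removed 68.2% of the label and 23% of fibroblasts, Cd3g was 20.7-fold above and Cd3d had no UMI left. That longer list holds Dntt and the recombination genes, which B progenitors also express. The stricter list holds Arpp21, with 263 UMIs in the cells with Cd3g and 29 in the others (7.44-fold, 5.06 to 11.3), out of that list's 557. How far Arpp21 set the stricter exclusion was not tested. Of 31 pathway genes with at least 20 UMIs, 18 were at least 3-fold above fibroblasts, led by Syk (347-fold), Vav1 (129-fold) and Ptprc (103-fold).

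**Figure D4:**
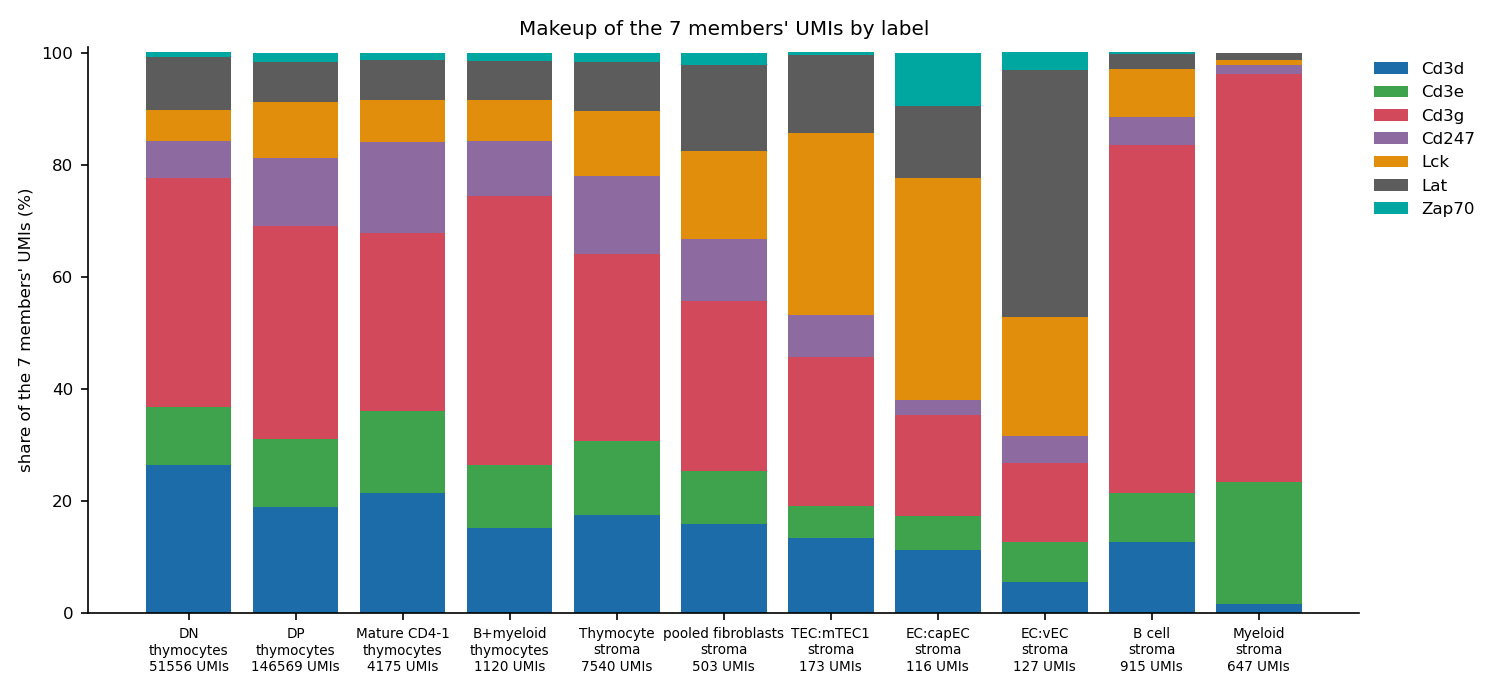
Share of each gene in the UMIs of the 7 genes (percent, stacked to 100) in labels of both libraries, with the UMIs behind each bar. Cd3g takes 72.8% in Myeloid and 62.1% in B cell, against 33.4% in stromal thymocytes and 30.4% in fibroblasts, Lat takes 44.1% in EC:vEC and Lck 39.7% in EC:capEC.

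The makeup of the counts differed between these labels. Cd3g made up 33.4% of the UMIs of the 7 genes in the stromal label Thymocyte, 38.0% in DP and 40.9% in DN cells, and 30.4% (26.4 to 34.6) in fibroblasts. It made up 72.8% (69.2 to 76.2) in Myeloid and 62.1% (58.8 to 65.2) in B cell. The share of Cd3e in Myeloid was 21.8% and that of Cd3d 1.55%, where Cd3d made up 17.5% in Thymocyte. In fibroblasts Lck made up 15.7% and Lat 15.3%, above their 11.6% and 8.86% in Thymocyte.

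In the endothelial label EC:vEC (344 cells, median 9585.5 UMIs) the raised genes were Lat and Lck. Lat stood at 15.5 CPM (11.7 to 20.1; 56 UMIs), 15.9-fold (11.1 to 22.7) above fibroblasts, and Lck at 7.46 CPM (27 UMIs), 7.46-fold (4.63 to 11.7). Cd3g (18 UMIs) and Cd3d (7 UMIs) were under the minimum of 20 UMIs. Thus both members with at least 20 UMIs were above the background, where 10.1% of such genes were. Lat was counted in 35 cells, 10.2% of the label against 0.901% of fibroblasts. After thinning, only 2 UMIs were left, in 0.588% against 0.122% of cells, a ratio of 4.83 in CPM, so no change can be read at that depth.

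Genes of high endothelium, and some T-lineage genes, were higher in the cells with Lat. Glycam1, the mucin-like ligand of L-selectin made by high endothelial venules, was 22592 against 2384 CPM (9.48-fold) in them. Fut7, which makes the selectin ligand sugar, was 8.19-fold higher. Chst4, its sulfotransferase, was 7.44-fold higher (1.89 to 30.8), from 6 against 5 UMIs. The trait was not particular to Lat. In the label's 22 cells with Lck, which held 9 Lat UMIs, Glycam1 was 6.84-fold (6.64 to 7.05) and Fut7 4.11-fold (2.25 to 7.22) higher. Chst4 was not resolved there (1.07, 0.0248 to 7.55). The 35 cells with Lat also held 13 of the label's 18 Cd3g UMIs (16.1-fold, 5.39 to 57.8). Lef1 was 9.30-fold (2.21 to 44.8) and Lck 3.10-fold (1.23 to 7.27) higher in them. Reg3g and the chemokine gene Ccl20, which were also counted in epithelium, went with Lat too. Reg3g was 398-fold higher, with 321 UMIs against 5, and Ccl20 had 57 UMIs in cells with Lat and 0 in the others. Split by Lck, Reg3g had 0 UMIs in the EC:vEC cells with Lck and 326 in the others. In TEC:mTEC1 Reg3g stood at 2632 CPM in cells with Lck and 1049 CPM in the others, and Ccl20 had 15 and 85 UMIs. The part of epithelial RNA in these Reg3g and Ccl20 counts was not tested. Median depth was 13047 UMIs in the EC:vEC cells with Lat, against 9179 in the others. In 27 of the 35 cells, with 43 of the Lat UMIs, no other gene of the 7 was counted, and 31 cells with 47 Lat UMIs held no UMI of the stricter T-lineage genes. Spns1 was compared as a chromosomal neighbour of Lat and did not differ (1.24-fold, 0.561 to 2.47). The venous endothelial markers summed to 3911 CPM in the label and none was at 0, and the stricter T-lineage genes summed to 8.29 CPM. Among 15 pathway genes with at least 20 UMIs, 3 were at least 3-fold above fibroblasts, namely the kinase genes Txk (9.59-fold) and Tec (8.46-fold), and Dgkz (6.40-fold), a diacylglycerol kinase gene.

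**Figure D5:**
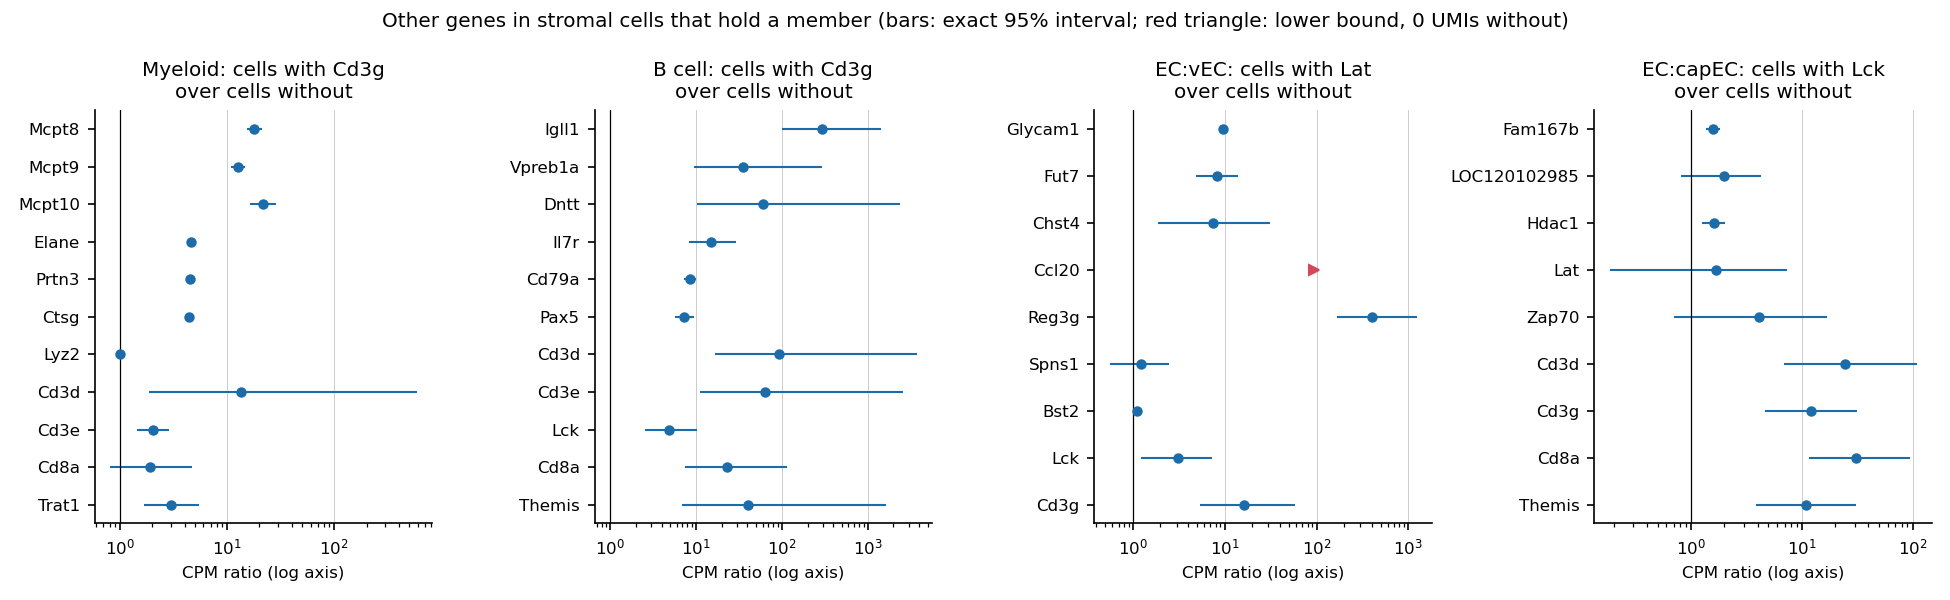
CPM ratio of other genes between cells with and without a member UMI, on log axes with exact 95% intervals, for Myeloid (Cd3g), B cell (Cd3g), EC:vEC (Lat) and EC:capEC (Lck); the triangle for Ccl20 is a lower bound. Granule protease genes lead in Myeloid (Mcpt10 21.4), Igll1 in B cell (293) and Reg3g (398) and Glycam1 (9.48) in EC:vEC.

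Lck was also above the background in EC:capEC and in the epithelial (TEC) labels. In EC:capEC (636 cells, median 5805.5 UMIs) it stood at 10.3 CPM (46 UMIs), 10.3-fold (7.03 to 15.1) above fibroblasts, in 6.29% of cells (0.963% thinned, against 0.122%). It was the only gene of the 7 in 37 of its 40 cells, and 35 of the 40 held no UMI of the stricter T-lineage genes. T-lineage genes were higher in those 40 cells than in the other 596: Ccr9 43.6-fold (8.70 to 422), Cd8a 30.9-fold (11.6 to 95.7; 17 of 23 UMIs), Cd3d 24.5-fold (6.85 to 109; 9 of 13), Cd3g 12-fold (4.62 to 31.5) and Themis 10.9-fold (3.83 to 31.0). In the 40 cells the Cd3d and Cd3g UMIs all lay in 3 cells that held Lck and at least 2 other genes of the 7. Under both exclusions described for B cell, applied to fibroblasts too, the Lck ratio stayed within its counting interval. The part of T cell RNA in the Lck count was not tested beyond these values. Of the 2 members with at least 20 UMIs, 1 was above the background there, where 10.7% of genes with as many UMIs were. Zap70 had 11 UMIs in the label, 17.8-fold (6.98 to 45.2) above fibroblasts but under the minimum of 20.

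In the epithelial labels the same gene recurred. TEC:mTEC1 held 56 Lck UMIs, 8.71-fold (6.07 to 12.4) above fibroblasts, and also passed for Lat (3.83-fold), Cd3g (3.69-fold) and Cd3d (3.53-fold), so all 4 members with at least 20 UMIs were above the background, where 13.9% of such genes were. Lck was the only gene of the 7 in 33 of its 45 Lck cells, and 23 of the 45 held no UMI of the stricter T-lineage genes. In the 45 cells Themis was 34.6-fold (12.9 to 116), Cd8b 20.7-fold (6.13 to 89.0), Cd8a 15.9-fold (6.84 to 39.8) and Cd247 12-fold (3.47 to 46.7) higher than in the others. Arpp21, on the stricter list, had 20 UMIs in the 45 cells and 148 in the others (1.02, 0.603 to 1.63), of the list's 272. TEC:early Pr held 68 UMIs (5.60-fold, 3.99 to 7.85; 3.23-fold when thinned to 1000 UMIs), and 1 of its 4 members with at least 20 UMIs passed, where 11.8% of such genes did. Lck was alone in 55 of its 60 cells there, and 48 of the 60 held no UMI of the stricter T-lineage genes. Lat was 15.0-fold (5.60 to 40.1) and Cd3d 11.5-fold (4.52 to 28.4) higher in the 60 than in the others. TEC:cTEC held 37 UMIs (7.42-fold, 4.88 to 11.1), and 1 of 2 such members passed, where 11.7% of genes did. Lck was alone in 27 of its 31 cells, and 26 of the 31 held no UMI of the stricter T-lineage genes. Cd3e was 49.2-fold (15.7 to 204) and Cd3d 36.7-fold (12.5 to 130) higher in the 31 than in the others. Under both exclusions of cells with T-lineage genes, Lck in TEC:mTEC1, TEC:early Pr and TEC:cTEC stayed within its counting interval. The part of T cell RNA in these Lck counts was not tested beyond these values. In TEC:mTEC2 Lck was the 1 member with at least 20 UMIs and passed, where 21.8% of genes did. There 17 of its 24 UMIs came from 1 cell, and Lck was 8.20-fold rather than 27.4-fold above fibroblasts without it, and 13.7-fold when thinned to 1000 UMIs. None of the 7 passed in EC:aEC (10.1% of genes), TEC:mTEC-prol (17.9%) or vSMC/PC (5.48%), where every gene had fewer than 20 UMIs. In TEC:aaTEC2 (29 cells) every gene was also under 20 UMIs, but the intervals of all 7 ratios to fibroblasts lay above 1. Cd3g had 19 UMIs there (18-fold, 10.5 to 29) and Cd3e 9 (27.7-fold, 11.9 to 57.2). In 2 of the 29 cells 3 or more of the 7 genes were counted.

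Genes beside Lck on the chromosome in the RefSeq table were also read. Fam167b, its neighbour, was 0.456 CPM in fibroblasts. In EC:capEC it was 551 CPM in the cells with Lck and 349 CPM in those without (1.58-fold, 1.36 to 1.83), and in TEC:early Pr it was 5.48-fold (2.82 to 10.1) higher in the cells with Lck. In TEC:mTEC1 it had 0 UMIs in cells with Lck and 12 in the others, a ratio with an interval of 0 to 2.71. A long noncoding RNA, LOC120102985, overlaps Lck on the opposite strand and stood at 0.519 CPM in fibroblasts and 28.6 CPM in Thymocyte. Whether the counting used strand is not given in the sources used here, so reads of Lck and this RNA cannot be told apart.

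In the thymocyte library the label B+myeloid (170 cells, median 11506.5 UMIs) held Cd3g at 225 CPM (538 UMIs), 0.0765 of the DP level. Cd3d was 71.1 CPM, Cd3e 52.7, Cd247 46.0, Lck 34.3, Lat 32.6 and Zap70 6.69 CPM. Cd3g made up 48.0% of the 7 genes' UMIs there, against 38.0% in DP cells. The 9 cells with Siglech, a plasmacytoid dendritic cell gene, held 233 of the Cd3g UMIs, beside 40 of Cd247, 16 of Cd3e, 15 of Cd3d, 11 of Cd8a and 4 of Lck. All 9 also held UMIs of the stricter T-lineage genes. The 68 cells with no UMI of those genes held 11 Cd3g UMIs in all, which put Cd3g at 0.0066 of the DP level. These 68 cells had a median of 7134.5 UMIs, against 16564.5 in the 102 cells with such a UMI. The remaining Cd3g UMIs lay in 93 cells without Siglech that held a UMI of the stricter genes (median 14622 UMIs). The part of depth in the low value was not tested. The granule proteases lay in the cells without Cd3g: Mcpt8 had 0 UMIs in cells with Cd3g and 2678 in the others, Mcpt9 0 and 878, and Mcpt10 1 and 3163. In the stromal label Myeloid the same genes were higher in the cells with Cd3g.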

How the data were processed

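Both droplet libraries were deposited as raw UMI counts per gene and barcode, per the file headers, by Cell Ranger 8.0.0. Seurat 5.3.0 and the build mRatBN7.2 are named in the submitters' processing notes. The deposited cell tables give each cell's label and its percent of mitochondrial UMIs, computed by the authors. The projected label was used, or the initial cluster where a cell had no projected label, and the annotation rule is not stated. Of 34034 feature names 29433 matched RefSeq symbols.

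Here UMIs were summed per label of at least 20 cells and scaled to CPM. Exact Poisson, Clopper-Pearson and conditional ratio intervals (95%) cover counting error only. Fold counts used genes with at least 50 UMIs in both labels together (2-fold), or 20 UMIs outside the T lineage (3-fold, against fibroblasts). Cells were thinned to 1000 UMIs with a fixed seed. No doublet caller was run. Scripts (Python 3.11.15, NumPy 2.4.6, SciPy 1.17.1, pandas 2.3.3) were tested on simulated data. All 7 genes are named, with the 5 highest and lowest pathway genes of each mature label against DP, pathway genes at least 3-fold above fibroblasts, and the 3 genes most alike in order; some genes this rule selects are not reported here. The members and lists were chosen with earlier results of these data known, and the stricter T-lineage, granule protease, B progenitor, plasmacytoid, high endothelial and neighbour lists were added after seeing the data.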

Additional observations from a re-analysis of the deposited data

Results flagged for a closer look

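Of the 16160 stromal barcodes, 2934 carry no label from the authors and enter no comparison above; their median depth is 1219.5 UMIs. All 7 genes were counted there above the limit that a count of 0 allows: Cd3g 322 UMIs (37.2 CPM), Cd3d 86, Lck 78, Cd3e 59, Lat 58, Cd247 54 and Zap70 13 UMIs. Cd3g was in 85 of these barcodes (2.9%), and 15 barcodes with at least 5 Cd3g UMIs held 222 of them. Granule protease genes summed to 8235 CPM in the barcodes with Cd3g and 38.5 CPM in the others, B progenitor genes to 278 and 29.7 CPM, and the stricter T-lineage genes to 330 and 44 CPM. Of the 85 barcodes with Cd3g, 14 (16.5%) held any granule protease UMI and 34 (40%) a UMI of the stricter T-lineage genes. Cd3g made up 48.1% of the UMIs of the 7 genes. Which cells these barcodes hold was not tested.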

How the results depend on the processing

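Depth and 1 library per group limit every ratio, and no alternative measures the spread between animals. Over all alternatives 116 ratios gave 746 values, of which 514 moved by less than their counting interval, 187 moved further and 45 changed direction; without the scale of UMIs per cell 6 of 648 changed direction. No paired analysis was possible because a single library stands on each side. Initial clusters replaced the labels only for DN, DP-P, DP and B+myeloid; the other labels have no counterpart among the clusters.

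As UMIs per cell in place of CPM, DP was below DN for Cd3d (0.153), Cd3e (0.254), Cd3g (0.198), Cd247 (0.387), Lck (0.388), Lat (0.164) and Zap70 (0.382), and below DP-P (0.220, 0.343, 0.262, 0.447, 0.438, 0.226 and 0.415 in that order). DP-P was below DN for all 7. This changed the direction for Cd3g (0.756), Cd247 (0.865), Lck (0.886) and Zap70 (0.919), while Cd3d was at 0.695, Cd3e at 0.740 and Lat at 0.727. Mature CD4-1 was above DP for Cd3d (1.39), Cd3e (1.47), Cd3g (1.02), Cd247 (1.66), Lat (1.20) and Zap70 (1.07), and Mature CD8-1 for all 7 (1.78, 2.02, 1.19, 1.31, 1.09, 1.26 and 1.67). Other changes of direction on that scale were Cd3d (1.13), Cd3e (1.13) and Lck (1.07) in Immature CD4-1 against DP-sig, Cd3e (1.06) and Cd3g (1.00) in Immature CD8-1 against DP-sig, Cd3d (1.23) and Cd3g (1.27) in Mature CD8-2 against Mature CD8-1, and Cd3g (0.909) in gdT against DN. The counts past 2-fold became 0 higher and 7 lower for DP against both DN and DP-P. They became 0 lower for Mature CD4-1 and 0 lower and 1 higher for Mature CD8-1 against DP. Mature CD8-2 against Mature CD8-1 gave 2 higher and Treg against Mature CD4-2 gave 1 lower. Per cell the median gene in DP was itself at 0.159 of DN and 0.22 of DP-P. The median was 1.74 for Mature CD4-1 and 2.13 for Mature CD8-1 against DP. It was 1.61 for Mature CD8-2 against Mature CD8-1 and 0.786 for Treg against Mature CD4-2. The share of all genes past 2-fold was not counted on that scale.

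On other settings, Cd3d in DP-P against DN was 1.01 with initial clusters and Cd3g 0.976 with totals free of mitochondrial, ribosomal protein and haemoglobin genes. Thinned to 1000 UMIs, Lck in Immature CD4-1 was 1.09 and Zap70 in Immature CD8-1 1.25 against DP-sig, and Cd3d in Mature CD8-2 1.09 against Mature CD8-1. With 1.5-fold in place of 2-fold, the counts were 5 higher for DP against DN, 2 lower for DP-sig and 6 lower for Mature CD4-1 against DP, 1 lower for Mature CD8-1 against Mature CD4-1, 3 lower for Treg and 1 higher for gdT, which was also 1 when thinned. With 3-fold, DP against DN and DP-P and both mature labels against DP gave 0. Initial clusters gave 0 for DP against DP-P, and totals free of the abundant genes 1 lower for each mature label. The share of all genes past each limit was not counted at these settings.

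Outside the T lineage, Cd3g in Myeloid was 22.6-fold above fibroblasts by the mean of each cell's CPM, 15.1-fold thinned, 32.1-fold without cells with 3 or more UMIs of the 18 T-lineage genes and 28.1-fold without any UMI of the 10 stricter ones. Cd3e there was 22.2-fold by the mean and 27.2-fold thinned. These exclusions were applied to fibroblasts too, of which the 18-gene rule removed 23% and the stricter rule 3.98%. In B cell, Cd3g was 20.7-fold and 39.9-fold and Cd3d 0 and 8.47-fold under those exclusions, and Cd3d 63.1-fold by the mean and 58.9-fold thinned. Thinned, Lat in EC:vEC was 4.83-fold and Lck in TEC:early Pr 3.23-fold. Under both exclusions Cd3e in Myeloid and Lat in EC:vEC stayed within their counting intervals. So did Lck in EC:vEC, EC:capEC, TEC:mTEC1, TEC:early Pr and TEC:cTEC. Lck in TEC:mTEC2 was 13.7-fold thinned, 6.67-fold and 50.7-fold under the exclusions and 8.20-fold without its top cell. Cd3g in B+myeloid was 0.0583 of DP by the mean, 0.0521 thinned and 0.0066 without the stricter T-lineage genes. The per-cell scale, the exclusion by the 10 stricter genes and the top-cell setting were chosen after seeing the data. The cause of these changes was not tested.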

Other observations

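The 12 thymocyte cells with the label DP2 were too few for a comparison. They had a median of 1309 UMIs, and 35.9% to 54.2% of their UMIs were mitochondrial, against a median of 5.22% in DP cells. Cd247 had 20 UMIs in them, Zap70 4, Cd3e, Lck and Lat 2 each, and Cd3d and Cd3g 0. The 28 thymocyte barcodes without a label held 2 UMIs each of Cd3g and Cd247 and 1 each of Cd3d and Lat.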
